A study of Mus musculus with 15 samples.

Results

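The subject of this report is a set of 10 mouse genes that macrophages of the testis express: Adgre1, Cd68, Csf1r, Cx3cr1, Mrc1, Cd163, Lyz2, C1qa, C1qb and C1qc. They were chosen by gene symbol, with earlier results of these data known. Each was found in the deposited table by its Entrez Gene ID, so that 10 of 23510 IDs are described. All 10 were above 0 FPKM in all 15 libraries.

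Macrophages are phagocytic cells of the innate immune system. In the testis they lie in the interstitium beside the Leydig cells and on the surface of the seminiferous tubules, and they are known for support of steroid production, for clearance of debris and for an immune tone that spares the germ cells. The receptor for colony stimulating factor 1 keeps them alive, scavenger and mannose receptors take up their cargo, and their secreted C1q starts the classical complement cascade.

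RNA of mouse testis (outbred ICR strain) was sequenced in 5 groups of 3 libraries. The label of the Con group gives the treatment as Con and the genotype as control and says nothing of an injection. MNC was the vector control of the lentivirus, and M1, M3 and M5 were the groups with knockdown of the muscarinic acetylcholine receptor of that name. Per the study's methods, a mixture of virus with 3 short hairpin RNAs per receptor was injected into the testis of pubertal male mice, one testis was taken some days later, and Con is not described there. The labels do not say whether replicates are separate animals, so p-values measure the spread between these libraries. The description of M5 replicate 2 repeats the column of M5 replicate 1, and that library was assigned by its title.

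Values are FPKM, in which the fragments mapped to a gene are scaled by its length and by all mapped fragments of the library. The sum of FPKM was 470243 to 513817 per library, at least 20619 genes were above 0, and absolute depth is unknown. Transcripts of the targeted receptors did not check the labels, since Chrm1 was at 0.06 to 0.17, Chrm3 at 0.01 to 0.11 and Chrm5 at 0.19 to 0.43 FPKM over all 15 libraries, and each group overlapped MNC (exact permutation test, two-sided, n = 3 each, p = 0.9 for Chrm1 in M1, 0.3 for Chrm3 in M3 and 0.5 for Chrm5 in M5). M5 replicate 3 stood apart, with the highest value of 26.4% of the 14514 genes tested. M3 replicate 3 stood with M5 at Tmem89, which was listed at 0 there and in the 3 M5 libraries and was at 26.4 to 47.5 FPKM in the other 11 libraries. Comparisons of the members in M3 and M5 are given with and without these 2 libraries. In bulk RNA, fewer cells of a type and less RNA per cell cannot be told apart.

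The surface marker Adgre1 encodes F4/80, the adhesion receptor by which mouse macrophages are usually identified. It was at 2.80, 3.14 and 2.58 FPKM in Con, at 6.62, 3.65 and 3.85 in MNC, at 2.88, 5.25 and 2.81 in M1, at 2.50, 3.56 and 2.64 in M3 and at 3.91, 4.20 and 5.65 in M5. All MNC and M5 libraries lay above all Con libraries, MNC replicate 1 was the highest of the 15, and M1 replicate 2 was far above the rest of M1. Group means ranged 1.66-fold, from Con to MNC, and no neighbours in the order MNC, M5, M1, M3, Con differed by more than their pooled SD.

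Cd68 encodes a lysosomal membrane glycoprotein of phagocytes. Its FPKM was 3.52, 4.39 and 3.11 in Con, 6.65, 4.35 and 3.89 in MNC, 3.55, 5.85 and 2.63 in M1, 2.10, 4.13 and 4.05 in M3 and 5.21, 7.80 and 10.9 in M5. The M5 libraries were all above those of Con and M3. The mean of M5, 7.98 ± 2.86 (SD, n = 3), was 2.33-fold the mean of M3, and M5 was the one group separated from its neighbour in the order by more than the pooled SD.

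Csf1r encodes the receptor for Csf1 and Il34, on which most tissue macrophages depend. It was at 5.09, 5.86 and 4.17 FPKM in Con, at 9.05, 4.26 and 4.68 in MNC, at 3.51, 5.91 and 3.09 in M1, at 3.02, 3.76 and 3.47 in M3 and at 5.76, 5.18 and 11.6 in M5. M3 lay below every library of Con, MNC and M5, whereas the other groups overlapped each other. Of its ligands, Csf1 was at 1.72 to 5.55 FPKM and Il34 at 0.27 to 0.80 FPKM over the 15 libraries.

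Cx3cr1 encodes the fractalkine receptor of monocytes and macrophages. Its level was 2.54, 3.54 and 3.15 FPKM in Con, 5.59, 3.41 and 3.38 in MNC, 2.44, 3.48 and 2.08 in M1, 1.69, 3.29 and 2.64 in M3 and 3.48, 3.73 and 8.03 in M5. MNC replicate 1 and M5 replicate 3 were again the high libraries. The transcript of its ligand, Cx3cl1, was at 1.24 to 3.59 FPKM. No ligand tested (Csf1 and Cx3cl1) was called by limma in any of the 10 pairwise comparisons, and 1 of the 20 tests, in M3 against MNC, had an unadjusted p under 0.05.

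Mrc1 encodes CD206, the mannose receptor by which resident macrophages take up glycoproteins. It was at 9.20, 9.43 and 8.72 FPKM in Con, at 9.10, 7.30 and 6.34 in MNC, at 6.28, 6.25 and 6.60 in M1, at 4.75, 6.43 and 6.22 in M3 and at 7.39, 8.42 and 13.4 in M5. The 6 libraries of M1 and M3 were all below the 6 of Con and M5, and M1 was the tightest group, with a mean of 6.38 ± 0.194 (SD, n = 3). With 7.72 FPKM on average over all libraries, Mrc1 was the member least spread among groups after Adgre1, its means differing 1.68-fold.

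Cd163 encodes the scavenger receptor for hemoglobin bound to haptoglobin. It was far lower than the rest, at 0.23, 0.52 and 0.50 FPKM in Con, 0.23, 0.23 and 0.26 in MNC, 0.16, 0.16 and 0.19 in M1, 0.14, 0.11 and 0.17 in M3 and 0.20, 0.24 and 0.86 in M5. All M1 and M3 libraries were below all others. Its mean of 0.280 over the 15 libraries is under the filter of the test across genes, so it was compared by exact permutation, where M1 and M3 each differed from Con, MNC and M5 with p = 0.1 (two-sided, n = 3 each), the smallest p that 3 against 3 libraries allow.

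Lyz2 encodes lysozyme M, a bactericidal enzyme of macrophages and neutrophils, and it had the highest mean of the 10 genes, 47.4 FPKM. Its values were 24.2, 41.2 and 27.0 in Con, 43.9, 30.5 and 30.6 in MNC, 36.9, 71.5 and 25.2 in M1, 30.5, 37.5 and 35.3 in M3 and 53.0, 66.8 and 156 in M5. The 3 M5 libraries exceeded all others except M1 replicate 2. Lyz2 lies on chromosome 10 (117277541 to 117282272, GRCm38.p6) beside its near-identical copy Lyz1 (117287795 to 117292868), so how reads were shared between them is uncertain. The ratio of Lyz1 to Lyz2 was 0.302 to 0.385 in 11 libraries, and 0.458 to 0.504 in the 3 M5 libraries and M3 replicate 3.

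C1qa, C1qb and C1qc encode the A, B and C chains of C1q, which binds antibody and dying cells. In Con the A chain was at 13.7, 16.5 and 11.8 FPKM, the B chain at 11.02, 12.1 and 11.7, and the C chain at 9.69, 12.02 and 10.7. In MNC the A chain was at 44.0, 20.1 and 22.5, the B chain at 38.3, 20.3 and 20.2, and the C chain at 30.7, 15.2 and 16.9. Every MNC library was above every Con library for all 3 chains, with replicate 1 far above the others.

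The C1q chains in the knockdown groups followed the same order of groups as each other. C1qa was at 19.2, 27.3 and 13.3 FPKM in M1, at 13.5, 17.1 and 16.5 in M3 and at 19.1, 25.7 and 55.3 in M5. C1qb was at 17.5, 22.6 and 13.6 in M1, at 12.8, 17.8 and 15.9 in M3 and at 21.9, 23.6 and 43.7 in M5. C1qc was at 14.1, 19.3 and 9.58 in M1, at 9.15, 12.9 and 11.4 in M3 and at 16.5, 21.8 and 42.9 in M5. For each chain the means fell in the order M5, MNC, M1, M3, Con, over 2.38-fold (C1qa), 2.56-fold (C1qb) and 2.51-fold (C1qc), and C1qb was the chain whose Con libraries lay below all 12 others.

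**Figure D1:**
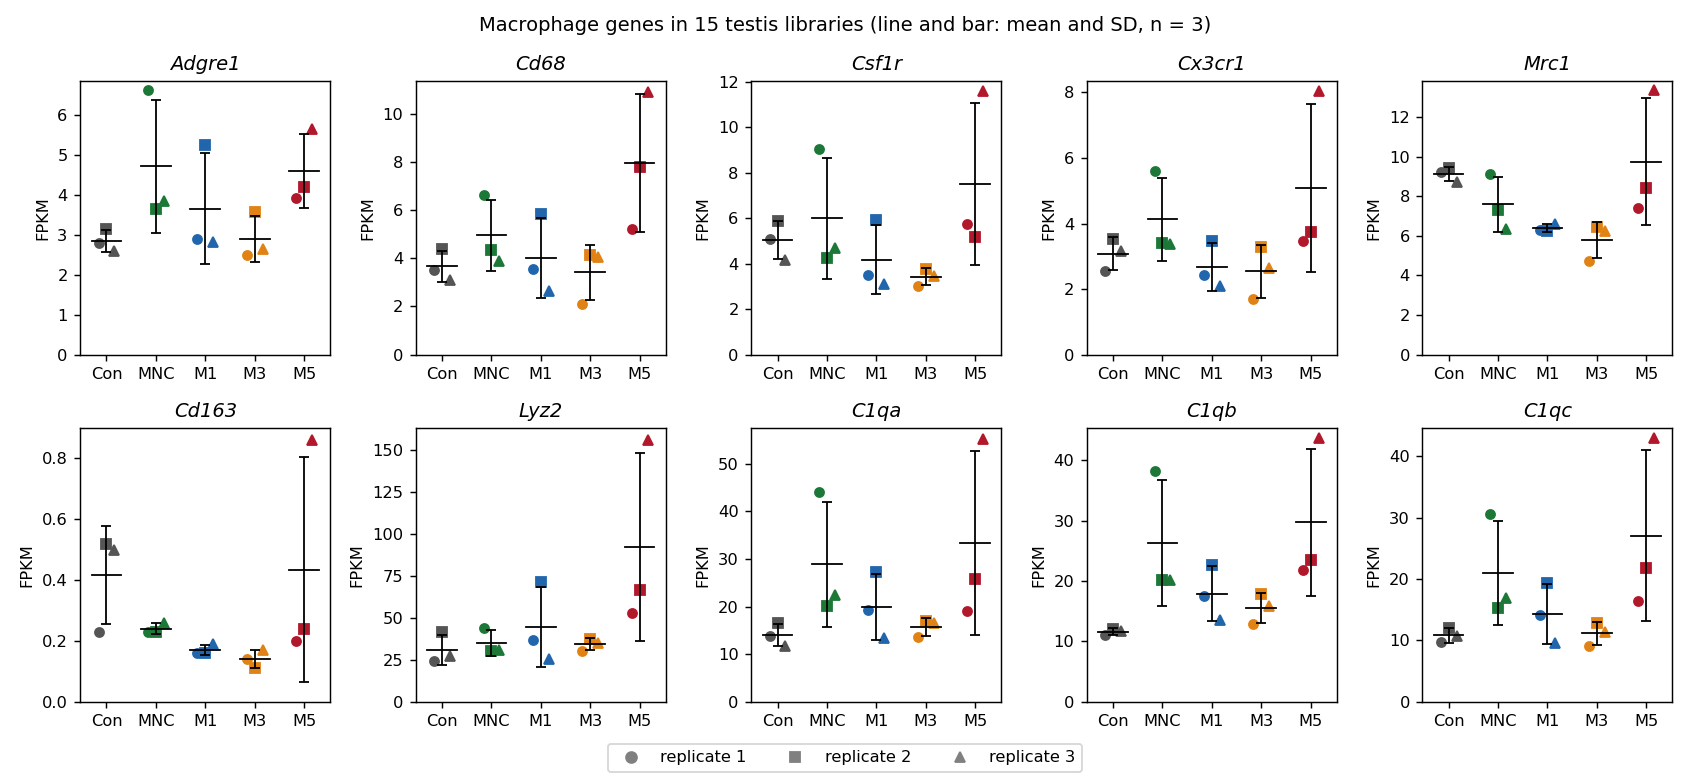
FPKM of the 10 macrophage genes (vertical axes, each from 0 with its own scale) in the 15 testis libraries by group. Points are libraries, with shape by replicate number, and the line and bar are the group mean and SD (n = 3); the third M5 library is the highest of all for 9 genes and the first MNC library is the highest of its group for 9.

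The members were high in the same libraries of a group. M5 replicate 3 was the highest of the 15 for 9 of 10 members, MNC replicate 1 for the tenth (Adgre1), and M3 replicate 1 was the lowest for 6. Of all genes tested, 26.4% were highest in M5 replicate 3, 7.51% highest in MNC replicate 1 and 13.9% lowest in M3 replicate 1. Within groups, M5 replicate 3 was the top M5 library for 10 of 10 members and had a median of 2.17 times the mean of the other two. MNC replicate 1 was the top MNC library for 9 (1.71 times) and M1 replicate 2 the top M1 library for 8 (1.65 times). Con replicate 2 was the top Con library for 10 (1.25 times) and M3 replicate 2 the top M3 library for 9 (1.21 times). Over all genes tested, these libraries were the top of their group for 55.4%, 45.6%, 41.0%, 49.6% and 40.7%.

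The 3 C1q genes lie together on chromosome 4, between 136880126 and 136898844 (18719 bases, GRCm38.p6, the patch level of the mm10 build that the submitters name), with no other gene of the RefSeq table among them. The group means of the chains shared an order that was not that of Mrc1, so the sequences before C1qb, C1qc and Mrc1 are shown. Within groups the chains went with Mrc1 (Pearson r of deviations from group means 0.796 for C1qa, 0.819 for C1qb and 0.789 for C1qc). Of the 10 members, 7 had a promoter in the RefSeq table, and C1qa, Adgre1 and Csf1r had none. The letters GAGGAA, which sites of the myeloid factor PU.1 contain, were searched on both strands in windows of 300 bases (250 before the start and 50 after). They occurred in 4 of the 7 (Mrc1, Cd68, C1qb and C1qc) and in 28.3% of all 32851 promoters. Mrc1 held 3 copies and Cd68 2, and 4.82% of all promoters held 2 or more. The 250 bases before each start are printed from 5′ to 3′ on the strand of the gene, with capitals for GAGGAA or its reverse complement, which begin 30 bases before the start of C1qb, 193 before that of C1qc, and 180, 167 and 35 before that of Mrc1. C1qb is on the minus strand (chr4:136886201-136886450), as is C1qc (chr4:136892915-136893164), and Mrc1 is on the plus strand (chr2:14229164-14229413). A match of letters is a description and not a bound site.
C1qb: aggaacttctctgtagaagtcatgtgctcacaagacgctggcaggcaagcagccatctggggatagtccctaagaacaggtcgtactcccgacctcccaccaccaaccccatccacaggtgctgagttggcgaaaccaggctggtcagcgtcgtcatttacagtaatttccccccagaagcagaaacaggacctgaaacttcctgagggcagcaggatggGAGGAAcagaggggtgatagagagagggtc
C1qc: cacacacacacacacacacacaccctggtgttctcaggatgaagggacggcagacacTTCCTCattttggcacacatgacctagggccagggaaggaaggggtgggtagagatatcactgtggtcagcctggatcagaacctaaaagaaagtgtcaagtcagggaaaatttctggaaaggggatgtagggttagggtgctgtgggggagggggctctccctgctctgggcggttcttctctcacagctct
Mrc1: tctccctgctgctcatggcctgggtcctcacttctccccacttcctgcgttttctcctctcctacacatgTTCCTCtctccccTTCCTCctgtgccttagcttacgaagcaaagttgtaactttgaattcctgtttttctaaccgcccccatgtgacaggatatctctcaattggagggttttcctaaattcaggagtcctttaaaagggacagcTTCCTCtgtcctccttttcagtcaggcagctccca

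The comparisons with Con asked what differs between testes of the Con group and those given virus, and they share the same 3 Con libraries. limma was run on log2(FPKM + 1) over 14514 genes with a mean of 1 FPKM or more, including 9 of the 10 members, and a gene was called at a Benjamini-Hochberg adjusted p under 0.05. Differences are on this log2 scale, which understates those of low genes. The median difference of all genes tested was -0.10 in MNC, -0.12 in M1, -0.13 in M3 and -0.04 in M5, so a member at 0 lies slightly above the bulk of genes.

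Against Con, C1qb rose in MNC by 1.05 (SE 0.242, limma adjusted p = 0.0345), from 11.6 ± 0.543 to 26.3 ± 10.5 FPKM (SD, n = 3 each). It was the 1 of 9 members called, where 20.4% of all genes were called and 8.03% were called higher. C1qa and C1qc were higher in every MNC library than in every Con library without being called (limma adjusted p = 0.0708 and 0.0621), as was Adgre1 (0.0974), making 4 members with separate groups against 15% of all genes. The median of the 9 was 0.33. The C1qb call was lost without any one of Con replicates 1, 2 and 3 or MNC replicates 2 and 3, whereas without MNC replicate 1 there were 4 members called, the 3 C1q chains higher and Mrc1 lower. Of all calls 1166 were higher and 1801 lower, and 1449 and 420 after centring on the median.

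In M1 against Con, members moved both ways. Mrc1 fell by 0.46 (SE 0.0555, limma adjusted p = 0.00835) and C1qb rose by 0.56 (SE 0.166, limma adjusted p = 0.0431), so 1 member was called higher and 1 lower, where 34.2% of all genes were called, 10.3% higher and 23.9% lower. Both had separate groups, as did Cd163, which was lower in M1, and of all genes 15.1% were separate and higher and 38.6% separate and lower. Mrc1 kept its call without each of the 6 libraries in turn, and C1qb lost its call without any one Con library, M1 replicate 1 or M1 replicate 2. Without M1 replicate 2, Csf1r was called lower. Of all calls 1494 were higher and 3475 lower, and 2234 and 837 after centring on the median.

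In M3 against Con, the 2 members called were both receptors and both lower. Mrc1 fell by 0.58 (SE 0.111, limma adjusted p = 0.0281), from 9.12 ± 0.362 to 5.80 ± 0.915 FPKM (SD, n = 3 each), and Csf1r fell by 0.45 (SE 0.125, limma adjusted p = 0.0472), where 22.1% of all genes were called and 15.1% were called lower. Mrc1, Csf1r and Cd163 had every M3 library below every Con library, where 36.6% of all genes did. C1qb was higher in every M3 library than in every Con library (0.38, limma adjusted p = 0.0599), where 12.8% of all genes were, and after centring on the median C1qb was called in place of Csf1r. No member was called without any one Con library or M3 replicate 1, and Mrc1 alone without M3 replicate 2 or M3 replicate 3. Of all calls 1017 were higher and 2193 lower, and 1590 and 257 after centring.

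In M5 against Con, 5 of 9 members were called and all 5 rose, where 21.7% of all genes were called and 9.32% were called higher. Lyz2 rose by 1.42 (SE 0.406, limma adjusted p = 0.0496), C1qb by 1.22 (SE 0.245, limma adjusted p = 0.0183) and C1qc by 1.14 (SE 0.317, limma adjusted p = 0.0459). Cd68 rose by 0.90 (SE 0.241, limma adjusted p = 0.0418) and Adgre1 by 0.53 (SE 0.141, limma adjusted p = 0.0409). C1qa joined them in having separate groups (1.06, limma adjusted p = 0.0804), making 6 against 17.9% of all genes. Mrc1 was at 0.05, and at -0.19 without M5 replicate 3, since the other two M5 libraries were below every Con library. Without M5 replicate 3, the high library, 6 members were called, the same 5 and C1qa, and without M5 replicate 1 the same 6. The count was 1 (C1qb) without M5 replicate 2 and 0 without any one Con library. Of all calls 1352 were higher and 1791 lower, and 1213 and 894 after centring.

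**Figure D2:**
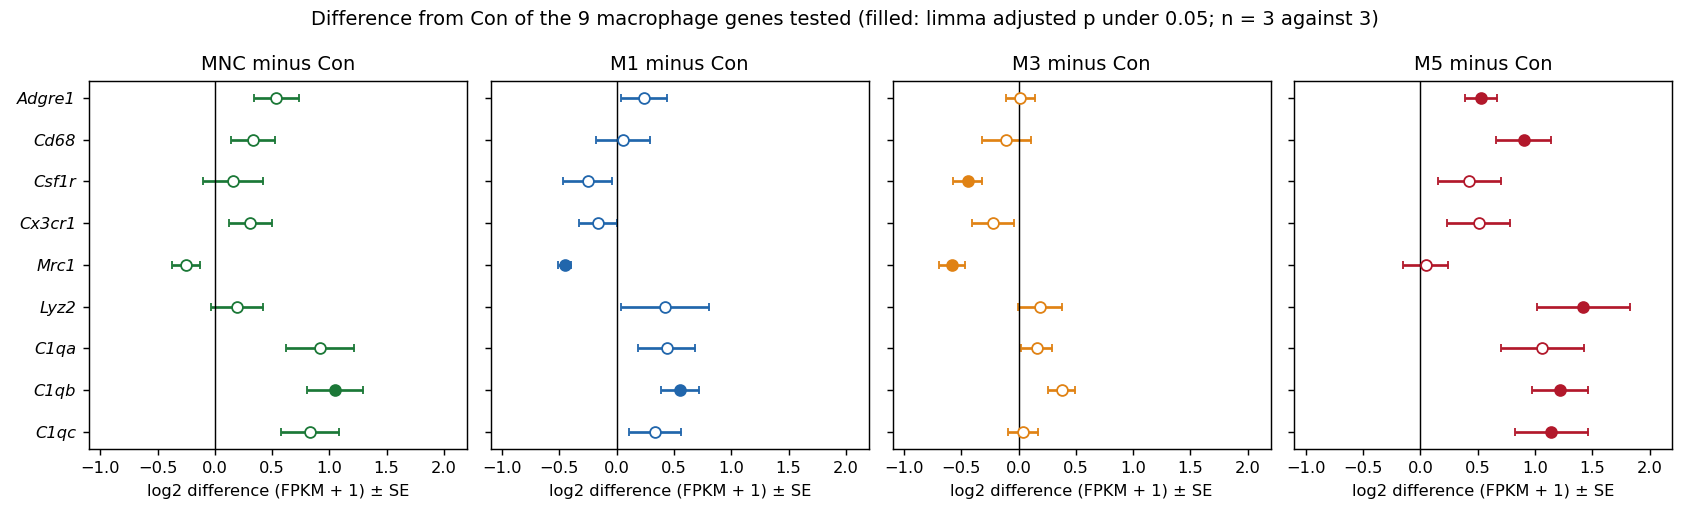
Difference of each of the 4 virus groups from Con on the log2(FPKM + 1) scale (horizontal axis) for the 9 macrophage genes tested, with bars of 1 SE (n = 3 against 3). Filled points passed limma at an adjusted p under 0.05: C1qb in MNC, Mrc1 and C1qb in M1, Mrc1 and Csf1r in M3, and 5 genes in M5.

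The comparisons with the vector control asked what a knockdown changes beyond the virus, and they share the 3 MNC libraries. limma called 0 of 9 members in M1, M3 and M5 against MNC, where 0.0%, 0.00689% and 5.65% of all genes were called, and 0, 5 and 1 members had an unadjusted p under 0.05, against 5.94%, 9.43% and 24.9% of all genes. In M1 the lowest p were those of Cx3cr1 (-0.47), C1qb (-0.49) and Mrc1 (-0.21), with limma adjusted p of 0.819, 0.829 and 0.829. Cd163 was the one member with separate groups, lower in M1, where 6.97% of the genes tested were.

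In M3 against MNC all 9 members tested were lower, with a median of -0.53 against -0.04 over all genes. C1qc was at -0.80 (SE 0.263), C1qa at -0.76 (SE 0.283) and C1qb at -0.67 (SE 0.260), each with a limma adjusted p of 0.518. Adgre1, Csf1r, Cx3cr1 and the 3 C1q chains had every M3 library below every MNC library, 6 of 9 against 10.6% of all genes, and so did Cd163. The median was -0.31 without MNC replicate 1 and -0.57 without M3 replicate 3. The number of members with an unadjusted limma p under 0.05 went from 5 to 1 without M3 replicate 3 and to 0 without M3 replicate 1. It was 4 without M3 replicate 2 or MNC replicate 1, 5 without MNC replicate 2 and 6 without MNC replicate 3.

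In M5 against MNC, Lyz2 was the one member with separate groups, which 16.6% of all genes showed in that direction. Its difference was 1.23 (SE 0.392, limma adjusted p = 0.116), that of Cd68 0.57 (limma adjusted p = 0.257) and that of Mrc1 0.30 (limma adjusted p = 0.463). The median over members was 0.27 and turned to -0.07 without M5 replicate 3. With both M5 replicate 3 and MNC replicate 1 left out, a choice made after seeing the values, Lyz2 alone was called (0.94, limma adjusted p = 0.0376).

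Among the knockdowns, M5 and M3 were furthest apart in these genes. Every M5 library was above every M3 library for all 10 members, against 14.4% of the genes tested. limma called 0 of the 9 tested, where 0.0138% of all genes were called. All 9 had an unadjusted p under 0.05, against 14.3% of all genes, and an adjusted p of 0.338 to 0.349. The number with an unadjusted p under 0.05 was 4 without M3 replicate 1 and 6 without M3 replicate 3. It was 8 without M3 replicate 2 or M5 replicate 3, and 9 without M5 replicate 1 or M5 replicate 2. Cd68 differed by 1.01 (SE 0.291), C1qc by 1.11 (SE 0.325) and Lyz2 by 1.24 (SE 0.369), each with a limma adjusted p of 0.338. The median difference was 0.87 (0.06 over all genes), 0.53 without M5 replicate 3 and 0.88 without M3 replicate 3, and 0 members were called without either.

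M5 against M1 gave 0 of 9 members called by limma, where 6.75% of all genes were called, and 2 with an unadjusted p under 0.05, against 25.4% of all genes. Cd68 was at 0.84 (SE 0.307, limma adjusted p = 0.151), Mrc1 at 0.50 (SE 0.197, limma adjusted p = 0.175) and C1qb at 0.66 (SE 0.289, limma adjusted p = 0.213). Without M5 replicate 3 the median over members went from 0.67 to 0.36, with Cd68 at 0.61, Mrc1 at 0.27 and C1qb at 0.36, and 1 member had an unadjusted p under 0.05. That number was 0 without M1 replicate 1 or M1 replicate 3, 7 without M1 replicate 2 and 6 without M5 replicate 1, with 0 called each time. Mrc1 and Cd163 had separate groups, higher in M5, where 18.8% of all genes did. In M3 against M1, limma called 0 of 9 members and 0.0% of all genes, 0 members had an unadjusted p under 0.05 against 4.63% of all genes, and all 9 were lower in M3, led by C1qc (-0.30), C1qa (-0.28) and Mrc1 (-0.13), each with a limma adjusted p of 0.899. The median over members was -0.19, -0.20 without M3 replicate 3 and 0.01 without M1 replicate 2, the high library of M1, with 0 called in each case.

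Over all 5 groups at once, the moderated F test of limma called C1qb (adjusted p = 0.0231), Mrc1 (adjusted p = 0.0407) and C1qc (adjusted p = 0.0488), 3 of 9 members against 33.6% of all genes. C1qb was called without each of the 12 libraries outside Con in turn, and no member was called without any one Con library.

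Ratios within a library do not depend on how the libraries were scaled, and they were examined after the levels were known, so they are given with no test. The geometric mean of the 3 C1q chains was 2.23, 2.29 and 2.73 times Csf1r in Con and 3.31 to 4.79 times Csf1r in the other 12 libraries. Each chain alone separated Con from the other 12 in the same way, and none of the other 6 members did. Of all genes tested, 1.1% had a ratio to Csf1r that was higher in all 12 than in Con, and 0.2% one that was lower. Against Mrc1, C1q was at 1.23 to 1.42 in Con and at 1.82 to 4.09 elsewhere, and Adgre1 at 0.296 to 0.333 and 0.422 to 0.840, a separation that 3.71% of all genes showed.

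The virus groups resembled each other in the ratio of C1q to Csf1r. C1q to Csf1r had a mean of 4.21 ± 0.0952 in MNC, 4.18 ± 0.525 in M1, 4.07 ± 0.180 in M3 and 3.97 ± 0.632 in M5, against 2.42 ± 0.273 in Con (SD, n = 3 each). The high libraries were not high in this ratio, with 4.12 in MNC replicate 1 and 4.05 in M5 replicate 3. C1q to Mrc1 spread more, with means of 3.24 in MNC, 2.72 in M1, 2.41 in M3 and 2.96 in M5. There the high libraries were the highest of their groups, at 4.09 in MNC replicate 1, 3.66 in M1 replicate 2 and 3.51 in M5 replicate 3. The ratio of C1qa to C1qb, chains of one molecule, stayed between 0.873 and 1.37 over all 15 libraries. C1qc to C1qb was at 0.879 to 0.994 in Con and at 0.752 to 0.981 in M5. It was below Con in MNC (0.751 to 0.836), M1 (0.705 to 0.855) and M3 (0.715 to 0.721).

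**Figure D3:**
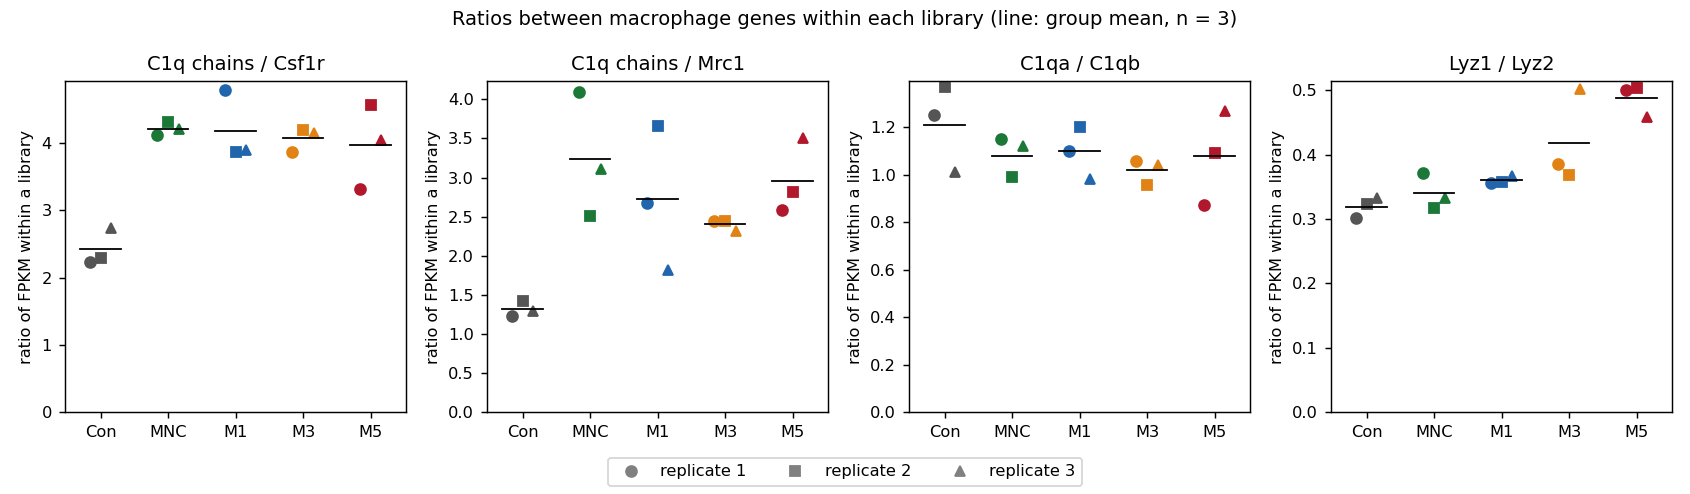
Ratios of FPKM within each library (vertical axes from 0) for the geometric mean of the C1q chains to Csf1r and to Mrc1, C1qa to C1qb, and Lyz1 to Lyz2. Points are libraries and lines are group means (n = 3); C1q to Csf1r was 2.23 to 2.73 in Con and 3.31 to 4.79 in the other 12 libraries.

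Other genes of these cells were taken from lists. Of 17 other myeloid genes tested (of 20), limma called 8 higher in MNC, 5 in M1, 6 in M3 and 13 in M5 against Con, and none lower, with medians of 0.72, 0.62, 0.27 and 1.19. Of all genes 8.03%, 10.3%, 7.01% and 9.32% were called higher in these comparisons and 12.4%, 23.9%, 15.1% and 12.3% lower, the background for each list that follows. Coro1a, an actin regulator of leukocytes, rose by 1.31, 1.45, 1.02 and 2.02 in these groups. Ptprc, the CD45 phosphatase that marks all white blood cells, was at 0.51 to 0.76 FPKM in Con and rose by 1.09, 1.12, 0.73 and 1.67. The filter used the mean of all 15 libraries. Ptprc, Fcgr1, Itgb2 and Cd53 had Con means under 1 FPKM, so they passed it through the virus groups. The counts include Ptprc and Itgb2 in each virus group, Fcgr1 in MNC and M5, and Cd53 in M5, and were not made without them. Such genes, in this or other lists, could hardly be called lower. Ctss, the protease that trims the invariant chain in antigen-presenting cells, rose by 1.39 in MNC, 0.68 in M3 and 1.94 in M5. Aif1 was called in each group, and is in the counts, but was at 203 to 358 FPKM, far above the other myeloid genes. Its lowest values in MNC and in M5 were in MNC replicate 1 (314 FPKM) and M5 replicate 3 (286 FPKM), where most members were highest. The counts of this list fell to 0, 2, 0 and 5 without Con replicate 1, to 0, 2, 0 and 8 without Con replicate 2 and to 2, 2, 1 and 8 without Con replicate 3. They were also lower without MNC replicate 2 (0) or 3 (2), M1 replicate 1 (2), M3 replicate 1 (1) or 3 (4) or M5 replicate 2 (6), and higher without M1 replicate 3 (8).

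Class II genes, by which peritubular macrophages and dendritic cells present antigen, had the largest medians of the 6 lists plotted. Cd74, the invariant chain, was at 15.4, 8.74 and 9.75 FPKM in Con and at 45.2 to 174 FPKM in the other 12 libraries. It rose by 3.12 in MNC, 2.94 in M1, 2.34 in M3 and 3.42 in M5 (limma adjusted p = 0.0158, 0.0093, 0.0238 and 0.00159). H2-Aa and H2-Ab1 were called too, so 3 of the 5 tested (of 7) rose in each group. Without Con replicate 1 the count was 0 in MNC and in M3 and stayed at 3 in M1 and M5. It was 1 in MNC without Con replicate 2, Con replicate 3 or MNC replicate 2, and in M3 it was 0 without Con replicate 2 and 1 without M3 replicate 1. Within a library, Cd74 was 1.49 to 3.02 times Csf1r in Con and 14.8 to 28.0 times in the others.

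Genes listed for resident macrophages were called lower chiefly in M1 and M3, and which testis cells gave their RNA was not tested. Of 15 tested (of 20), limma called 1 lower in MNC, 8 in M1, 7 in M3 and 0 in M5 against Con, and the scavenger receptor Msr1 higher in each group. The medians were -0.18, -0.35, -0.60 and -0.03. In M5, 2 of the 15 had an unadjusted p under 0.05. The genes called lower included Mertk and Axl in M1 and M3, and Igf1 in M1. Folr2, a folate receptor, fell by 0.93 in M1 and 0.86 in M3, and its ratio to Csf1r was 0.754 to 0.837 in Con and 0.311 to 0.582 in the other 12 libraries. Stab1, a clearance receptor, fell by 0.51 in MNC, 0.81 in M1 and 0.81 in M3. Pf4, a chemokine, fell by 0.96 in M1 and by 0.98 in M3. Cd5l, a secreted scavenger protein, was at 0.12, 0.06 and 0.20 FPKM in M3 and at 0.63 to 4.89 FPKM in all other libraries. The counts of lower genes depended on scaling and libraries, with 3 in M1 and 3 in M3 after centring on the median, 3 in M1 and 0 in M3 without Con replicate 1, 2 in M1 without M1 replicate 1, 0 in M3 without Con replicate 2 or M3 replicate 1, and 3 in M5 without M5 replicate 3. Msr1 kept its call without Con replicate 1 in M5 and lost it in MNC, M1 and M3.

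**Figure D4:**
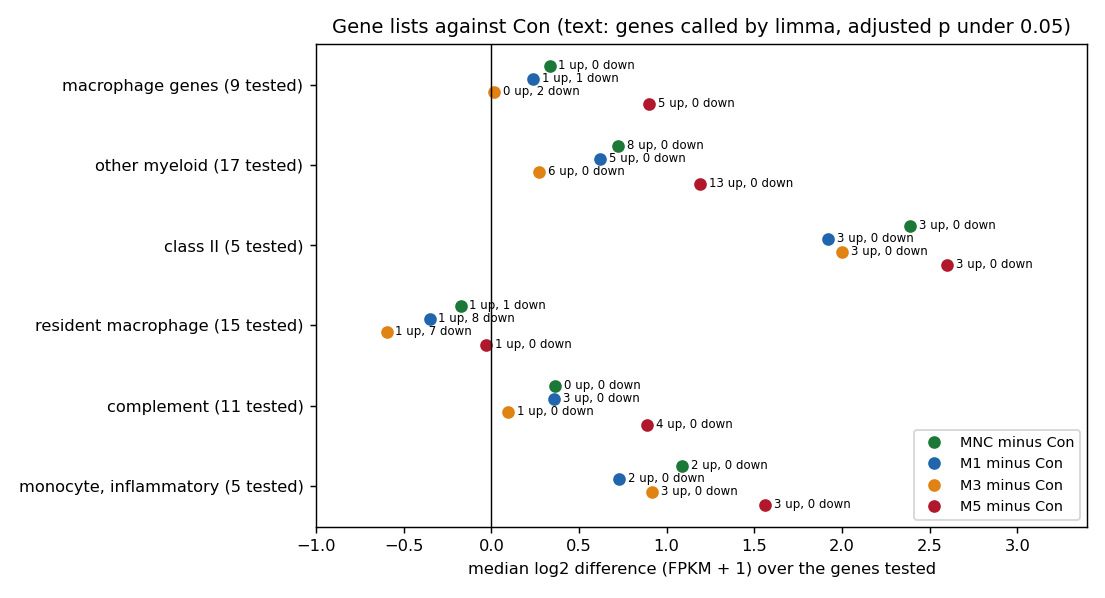
Median log2(FPKM + 1) difference from Con (horizontal axis) of the macrophage genes and of 5 other gene lists in the 4 virus groups, with the number of genes called by limma beside each point. Class II genes lie furthest to the right (medians 1.92 to 2.60) and resident macrophage genes lie at -0.60 to -0.03.

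Monocyte and complement genes were fewer. Of 5 monocyte and inflammatory genes tested (of 15), 2, 2, 3 and 3 rose in MNC, M1, M3 and M5, Chil3 among them each time. Ccr2, the receptor by which monocytes leave the blood, was at 0.34 to 0.57 FPKM in Con and 1.03 to 6.90 in the other libraries, through which it passed the filter. Of 11 complement genes tested (of 13), limma called 0, 3, 1 and 4 higher (4 had an unadjusted p under 0.05 in MNC), with Cfb in M1, M3 and M5, and C3 by 2.14 in M5 (limma adjusted p = 0.0158). Of 12 interferon response genes tested (of 16), 11, 5, 5 and 8 rose, Cxcl10 and Gbp2 among them each time. Without Con replicate 1 the counts in MNC, M1, M3 and M5 were 0, 1, 0 and 3 for the monocyte list, 0, 0, 0 and 1 for complement and 0, 0, 0 and 1 for interferon.

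Markers of other cells moved with the same contrasts, and their part in the results was not tested. T, NK and B cell genes summed to 8.40 to 9.27 FPKM in Con, 13.5 to 22.9 in MNC, 10.8 to 26.2 in M1, 12.1 to 15 in M3 and 20.2 to 21.1 in M5, and 3, 2, 2 and 3 of the 4 tested were called higher against Con (0, 0, 0 and 3 without Con replicate 1). Red blood cell genes summed to 148 to 491 FPKM in M5 and to 21.9 to 99.1 in the other groups. Epididymis genes summed to 11.9 to 34.4 FPKM in Con, 1.06 to 21.2 in M3 and at most 0.45 elsewhere, with Lcn5 and Lcn8 at 0 in every library of the 4 virus groups. Genes of neutrophils, which also express Lyz2, summed to at most 1.59 FPKM in Con, MNC and M1, 2.95 to 12.4 in M3 and 2.14 to 12.3 in M5, and mast cell genes to at most 2.38. Dendritic cell genes summed to 5.23 to 7 FPKM over all groups. Of 6 Leydig, 6 Sertoli and 5 peritubular myoid genes, 2, 5 and 3 were called lower against Con in M1 and 2, 4 and 3 in M3, the groups in which Mrc1 fell, where 23.9% and 15.1% of all genes were called lower. They numbered 0, 1 and 2 in MNC and 0, 0 and 1 in M5. Without Con replicate 1 they were 1, 0 and 2 in M1 and 0 of each in M3. Germ cell genes summed to 7240 to 14600 FPKM in Con and to 15100 to 24300 in the 4 virus groups. Of the 8 tested, 1, 2, 1 and 1 were called higher in MNC, M1, M3 and M5 and 2, 3, 1 and 1 lower, with the protamine Prm2 higher in M1, M3 and M5, and none was called higher without Con replicate 1.

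Likeness across the 15 libraries is a description, since libraries share groups and the third M5 library weighs on all pairs. Pairs of the 9 members correlated at 0.423 to 0.982 (Pearson r, median 0.841, 36 pairs), at 0.0617 to 0.969 without M5 replicate 3, and at 0.598 to 0.983 as deviations from group means. C1qa and C1qc were the closest pair (0.982). The genes most like the mean profile of the members were Tgfbr2 (0.979), Ctsz (0.975), C1ra (0.970), Tor3a (0.964), Evi2a, Stxbp3, Tor4a, Icam1, Lyn and Fth1 (0.953), and without M5 replicate 3 these r were 0.908 to 0.962. For single members, Ctss was nearest to C1qb (0.982), Maf to Csf1r (0.974), Csrp1 to Mrc1 (0.975) and Lyz1 to Lyz2 (0.972). Fcer1g was nearest to Adgre1 (0.963). Ctsz and Fth1, both in the list just given, were nearest to Cd68 (0.966) and Cx3cr1 (0.964).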

How the data were processed

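RNA of 15 mouse testis libraries was sequenced after poly(A) selection. The authors mapped reads to reference genes with SOAPaligner and deposited 1 table of FPKM values to 2 decimals for 23510 gene IDs, with mm10 named as the build in the submitters' processing notes. No counts were used, so depth and counting error are unknown, and the number of libraries limits precision. The labels' extraction text speaks of sperm, and the titles and sources of testis. Entrez IDs were named through a RefSeq table (GRCm38.p6, 89.9% matched), which also gave promoters. The 10 members, the gene lists and the tests were chosen with earlier results of these data known.

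The study's test models counts, so limma 3.58.1 (lmFit, eBayes with trend, R 4.3.3) was run on log2(FPKM + 1), pseudocount 1, over the 14514 genes that averaged at least 1 FPKM. Only the 2 groups in question entered a pairwise fit, without covariates, and adjustment was by Benjamini-Hochberg (0.05). Cd163 was compared by exact permutation. Fold changes are given for members called or, with none called, for the 3 with the lowest p. Of each other list at most 4 called genes per comparison are named, not strictly by size. Mertk, Axl and Igf1, and the genes named for the filter, come on top of these. Of the resident macrophage genes, Cd209f in M1 and Cbr2 in M3 differed more from Con than Stab1 and were left out. Other genes named with levels only (Tmem89, Aif1, Ccr2, Folr2 ratios and Cd5l) were chosen after seeing their values. On 5 simulated sets of 14514 genes with 200 changed by 1 log2 unit and 3 against 3 libraries, 70.8% were recovered, 100% with the right sign, and 6.23% of calls were false. Genes were drawn independently there, with no deviation shared by a library, so these rates may not hold for the real libraries. Libraries correlated at a median r of 0.984 within and 0.974 between groups across genes, and no 2 were identical. Alternatives are given in the closing section. Python 3.11.15 and pandas 2.3.3 were also used.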

Additional observations from a re-analysis of the deposited data

How the results depend on the processing

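Pseudocount 0.1, scalings, filters, eBayes without trend, 1 fit of all 5 groups, a replicate block, the study's threshold and leaving out each library were tried. Of the log2 differences given for members, Mrc1 in M5 against Con (0.05) turned to -0.0293 with equal sums of FPKM and to -0.19 without M5 replicate 3 (up to 0.203 without other single libraries), and the others kept their sign under the alternatives run. In M1, M3 and M5 against MNC and in the 3 comparisons among knockdowns, 0 members were called under every alternative except that 1 was called in M5 against MNC with M5 replicate 3 and MNC replicate 1 both left out, which was added after seeing the data.

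For MNC against Con (1 called), the filter at 5 FPKM gave 2, and no filter, the replicate block and the study's threshold (false discovery rate 0.001, absolute log2 ratio 1) gave 0, and leaving out 1 library gave 0 to 4. For M1 against Con (2), the filter at 0.1 FPKM and no filter gave 1, the fit of all 5 groups and the study's threshold 0, and leaving out 1 library 1 to 2. For M3 against Con (2), the filter at 5 gave 3 (Mrc1, C1qb and Csf1r), the filter at 0.1 and the fit of all 5 groups gave 1, no filter, the replicate block and the study's threshold 0, and leaving out 1 library 0 to 1. For M5 against Con (5), the filter at 0.1, equal sums of FPKM and the replicate block gave 1, the filter at 5 and eBayes without trend 3, no filter and the study's threshold 0, and leaving out 1 library 0 to 6. For all 5 groups (3), the filter at 5 and quantile normalization gave 4, the filter at 0.1 gave 1, no filter, the replicate block and the study's threshold 0, and leaving out 1 library 0 to 5. The filter and the lower number of libraries change what is tested, and other causes were not tested.

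The replicate numbers pair nothing in the labels, and deviations of same-numbered libraries correlated at -0.399 to 0.193, so the block is a hint only, with at most 4 of 6 libraries nearest to their own number. In M1 against Con the block kept 2 members called. Other myeloid genes called higher in MNC, M1, M3 and M5 against Con numbered 0, 4, 0 and 6 with the block. Class II genes called higher numbered 1, 3, 0 and 3, and resident macrophage genes called lower 0, 9, 0 and 0. At the study's threshold 0 genes of these lists were called in any of these comparisons. Over all genes the block took the calls from 2967 to 10 (MNC against Con), from 3210 to 0 (M3 against Con), from 3143 to 573 (M5 against Con) and from 820 to 14 (M5 against MNC), and the study's threshold left 2, 0, 32 and 6. The fit of all 5 groups gave 2424 calls for M5 against MNC and 2906 for M1 against Con (820 and 4969 in the pairwise fits). Without Con replicate 1 the calls against Con were 8 in MNC, 1259 in M1, 0 in M3 and 708 in M5. Values for low genes such as Cd163 rest on few reads, how many is unknown.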
